A study of Mus musculus with 15 samples.

Results

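The genes described here are 9 receptors and ligands of the neurotrophin, GDNF and HGF families, namely *Bdnf*, *Ntf3*, *Ngfr*, *Ntrk2*, *Ntrk3*, *Gfra1*, *Gfra2*, *Ret* and *Met*. They were chosen by gene name, and all 9 had a row among the 26835 genes of the Lhx6 table and the 25714 genes of the Mtg8 table. Each of the 15 RNA-seq libraries came from YFP-positive cells sorted from the cortex of 1 mouse embryo at E14.5, on a mixed C57BL/6/CBA background. In the first experiment, 4 control libraries (*Lhx6*+/+) were set against 5 *Lhx6* mutant libraries (*Lhx6*-/-) from littermates. In the second, 3 control libraries (*Mtg8*+/+) were set against 3 libraries labelled *Mtg8* mutant (*Mtg8*-/-, an allele carrying a LacZ insertion), again from littermates. All embryos, controls included, also carried the Nkx2-1-Cre transgene and the R26R-YFP reporter, so that YFP marked cells with a history of *Nkx2-1* expression, mostly derived from the medial ganglionic eminence (MGE). Both alleles were germline, so they were present in every cell of the embryo and not only in the sorted cells.

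Neurotrophins are secreted growth factors that act through Trk receptor tyrosine kinases and through the shared receptor p75. GDNF family ligands bind a GFRα co-receptor that recruits the kinase RET, although GFRα1 can also act without RET in MGE-derived interneurons, and HGF acts through the kinase MET. BDNF and NT-4 acting on TrkB, GDNF acting on GFRα1 and HGF acting on MET have each been described as cues for the migration or maturation of cortical interneurons.

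The libraries held 12218422 to 22053032 reads assigned to genes. *Lhx6* itself averaged 7250 normalized counts (reads divided by the library's size factor) in its controls and 331 in its mutants, which fits the labels. *Runx1t1*, the gene that encodes MTG8, averaged 8890 in its controls but 12800 where the label is *Mtg8* mutant, which goes against a loss of the transcript; its log2 fold change was 0.54 with a limma adjusted p of 0.859, and reads from outside a disrupted part do not check such a label. Summed over 11 MGE interneuron genes in the Lhx6 table, *Lhx6* included, the level was 39030 to 45140 in controls and 12630 to 26080 in mutants. Genes of the pyramidal lineage were also present in the sorted cells, at 22320 to 28060 in *Lhx6* controls and 27860 to 38610 in the mutants. In these bulk samples, fewer cells of a type and less RNA per cell cannot be told apart. The library names come in 2 styles, with and without a date: all 4 *Lhx6* controls and mutant 6 are undated and mutants 1, 2, 3 and 5 are dated, so style and genotype largely coincide in that table. The names also hold a code, shared by *Lhx6* controls 1 and 2 with mutant 6, by *Lhx6* mutants 2 and 5, and by *Mtg8* controls 1 and 2 with labelled mutant 2 (the dated libraries of that table), and what it marks is not stated in the sources used here.

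*Ntrk2*, which encodes the BDNF and NT-4 receptor TrkB, had the highest level per length of the 9 genes in the controls of both experiments. The median was 4.87 RPKM (reads scaled to library total and to the union of annotated exons) in *Lhx6* controls, with a range of 3.78 to 5.86, above 70.8% of the genes in that table. In *Mtg8* controls the median was 10.4 RPKM, with a range of 8.95 to 11.04, above 81.6% of the genes. *Ngfr*, which encodes p75, came second at 1.44 RPKM (1.07 to 1.996) and 4.57 RPKM (4.54 to 4.93), and its range lay below that of *Ntrk2* in both sets.

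In *Lhx6* controls the order went on with *Ntrk3* (0.985 RPKM), *Ntf3* (0.648), *Gfra2* (0.570), *Gfra1* (0.245), *Met* (0.0871), *Bdnf* (0.0618) and *Ret* (0). *Ntrk2* and *Ngfr* were the sole neighbours in this order whose ranges did not overlap, so the order of the other neighbouring genes was not resolved between these 4 libraries, although *Ntrk3* (0.875 to 1.18) lay wholly above *Gfra1* (0.111 to 0.379), *Met*, *Bdnf* and *Ret*. In *Mtg8* controls the order was *Gfra2* (1.49 RPKM), *Ntrk3* (1.43), *Ntf3* (0.365), *Gfra1* (0.306), *Met* (0.267), *Ret* (0.00752) and *Bdnf* (0). There the ranges of *Ngfr* and *Gfra2*, of *Ntrk3* and *Ntf3*, and of *Met* and *Ret* were also separate. *Ntrk3* has a union of exons of 30170 bases, against 19703 for its longest coding transcript, and with the latter length it moved ahead of *Ngfr* in *Lhx6* controls (1.51 against 1.44 RPKM) and ahead of *Gfra2* in *Mtg8* controls (2.19 against 1.52 RPKM). Scaled to library totals, the control medians in the *Mtg8* experiment were 3.17 times those in the *Lhx6* experiment for *Ngfr*, 3.06 for *Met*, 2.62 for *Gfra2*, 2.14 for *Ntrk2*, 1.45 for *Ntrk3*, 1.25 for *Gfra1* and 0.563 for *Ntf3*, a comparison across tables normalized separately that was not tested.

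**Figure D1:**
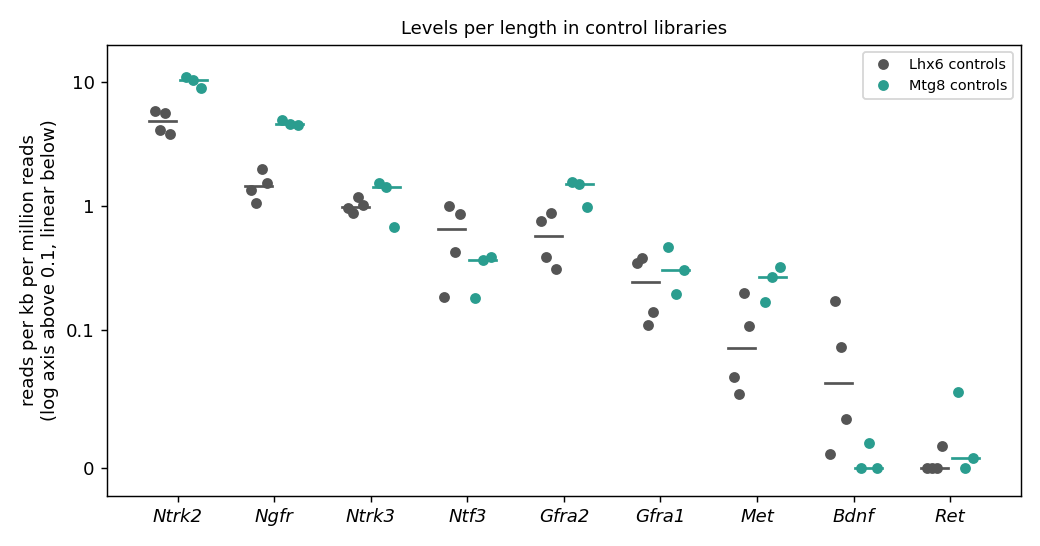
Levels per length, in RPKM, of the 9 genes in the 4 Lhx6 control libraries (grey) and the 3 Mtg8 control libraries (green); points are libraries, bars are medians, and the axis is logarithmic above 0.1 and linear below. *Ntrk2* is highest in both sets, at medians of 4.87 and 10.4, while *Bdnf* and *Ret* lie at or near 0.

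The promoters of *Ntrk2* and *Ngfr* are shown as those of the 2 genes with the highest levels per exon length. *Ntrk2* lies on chromosome 13 (58806569 to 59133970, plus strand) and *Ngfr* on chromosome 11 (95568818 to 95587735, minus strand) of GRCm38. The 250 bases before each RefSeq transcription start (GRCm38.p6, chr13:58806319-58806568 on the plus strand and chr11:95587699-95587948 on the minus strand) are given 5′ to 3′, with capitals marking GC boxes (GGGCGG, or CCGCCC for the other strand).
Ntrk2: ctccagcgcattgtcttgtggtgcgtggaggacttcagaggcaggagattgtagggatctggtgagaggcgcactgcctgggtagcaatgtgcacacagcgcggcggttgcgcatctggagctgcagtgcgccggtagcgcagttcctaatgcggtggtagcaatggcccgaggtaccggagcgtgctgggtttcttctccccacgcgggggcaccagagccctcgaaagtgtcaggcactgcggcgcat
Ngfr: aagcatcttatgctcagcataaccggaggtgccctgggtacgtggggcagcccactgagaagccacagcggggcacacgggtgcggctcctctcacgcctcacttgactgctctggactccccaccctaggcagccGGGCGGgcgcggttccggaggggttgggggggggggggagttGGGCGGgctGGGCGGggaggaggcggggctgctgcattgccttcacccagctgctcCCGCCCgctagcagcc
The *Ngfr* window held 4 GC boxes and the *Ntrk2* window 0, and 32.7% of 32841 promoter windows of this length held at least 1. The homeodomain core TAATTA, which reads the same on both strands, was found in none of the 13 windows of the 6 genes with a RefSeq entry (7 for *Bdnf*, 2 for *Ntf3* and 1 each for *Ngfr*, *Ntrk2*, *Gfra1* and *Met*). It was found in 4.84% of all windows, and the absence of these letters from a window says nothing of binding elsewhere.

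No member passed the test in either experiment. By limma on log2(normalized count + 1), called at an adjusted p under 0.05, 0 of 7 members tested were called in *Lhx6* mutants, against 1.71% of the 16727 genes tested (0.682% lower and 1.03% higher). In the libraries labelled *Mtg8* mutant, 0 of 7 were called, against 0% of 16132 genes. The unadjusted limma p was under 0.05 for 0 members in each table, against 12.7% and 5.49% of all genes. On whole reads edgeR and DESeq2 called 0 members as well. Of 16727 genes in the Lhx6 table, edgeR called 111 lower and 169 higher. DESeq2 called 4.53% of the genes it tested in the Lhx6 table and 0.191% in the other. *Bdnf* and *Ret* had mean normalized counts under 10 in both tables and were left out of the main limma fit. With no filter their limma adjusted p-values were 0.989 and 0.908 in the Lhx6 table and 0.999 for both in the Mtg8 table. Control and mutant values overlapped for all 9 genes in both experiments, while the groups did not overlap for 6.22% of all genes tested with *Lhx6* (3.03% lower and 3.19% higher in mutants) and 10.2% of those tested with *Mtg8* (5.52% lower and 4.68% higher). The median log2 fold change of the 7 tested members was -0.22 in the Lhx6 table, where it was -0.04 over all genes, and -0.29 in the Mtg8 table, where it was -0.01.

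**Figure D2:**
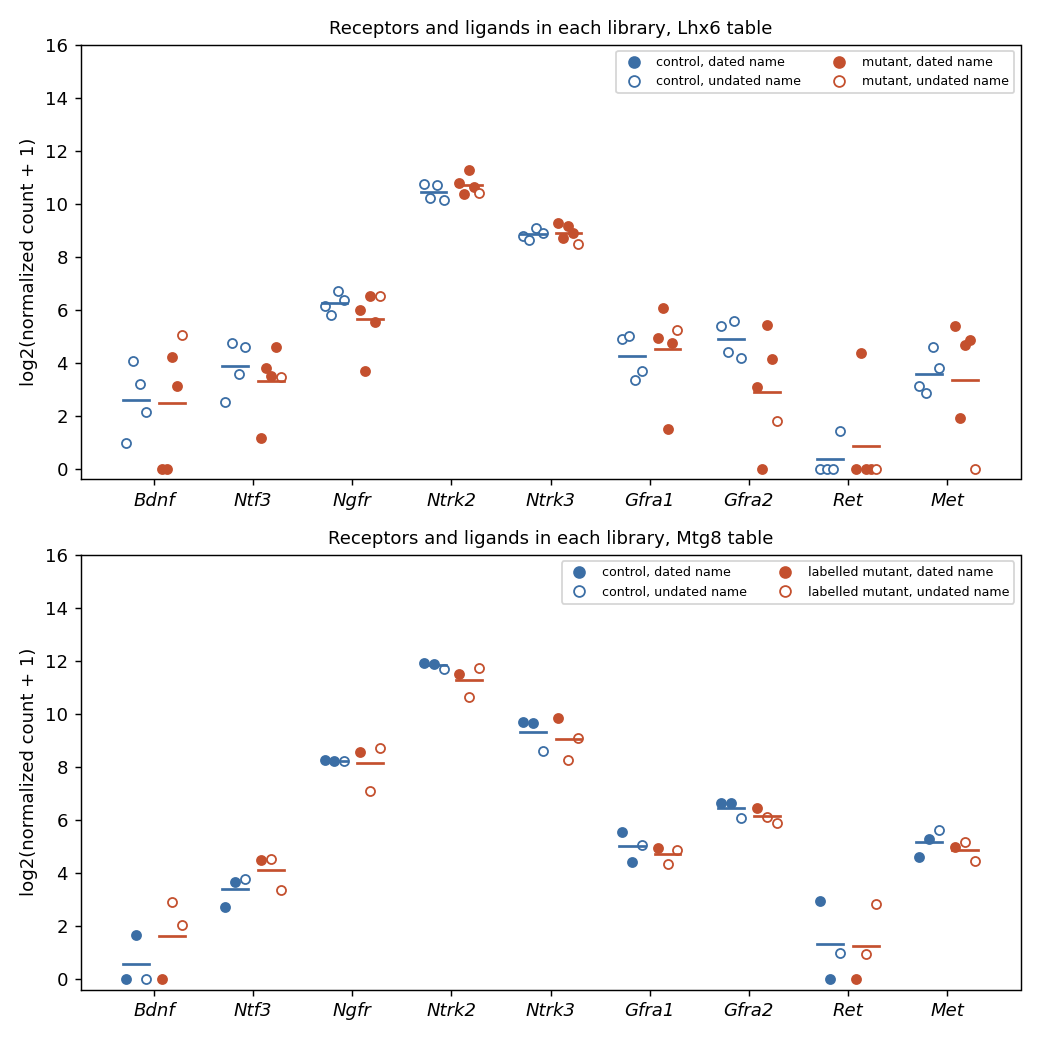
Log2(normalized count + 1) of the 9 genes per library, for *Lhx6* (top) and *Mtg8* (bottom), for controls (blue) and mutants or labelled mutants (red); filled points are libraries with a dated name, open points those with an undated name, and bars are group means. Controls and mutants overlap for every gene, and in the Lhx6 table the libraries lie closest together for *Ntrk3* (355 to 620 normalized counts) and *Ntrk2* (1128 to 2490).

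Of the ligands, *Bdnf* (brain-derived neurotrophic factor, chromosome 2) was near the detection limit. The *Lhx6* controls 1 to 4 held 1, 18, 9 and 4 reads, and mutants 1, 2, 3, 5 and 6 held 0, 0, 19, 8 and 26. The *Mtg8* controls 1, 2 and 4 held 0, 2 and 0 reads, and the libraries labelled mutant 2, 3 and 4 held 0, 7 and 4. Both groups thus included libraries with no more than a few reads, and a count of 0 still allows up to 3 reads, which is 2.78 normalized counts in *Lhx6* mutant 2 and 3.71 in mutant 1.

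*Ntf3* encodes neurotrophin-3, the ligand of TrkC (chromosome 6). Its normalized counts were 4.81, 25.7, 11.1 and 23.1 in *Lhx6* controls 1 to 4 and 1.24, 12.96, 10.3, 23.3 and 9.91 in mutants 1, 2, 3, 5 and 6. The log2 fold change was -0.56 (95% interval -2.23 to 1.10, adjusted p = 0.769 by limma), and without mutant 1, the lowest library, it was -0.03. *Ntf3* in the Mtg8 table stood at 5.59, 11.7 and 12.7 in controls 1, 2 and 4 and at 21.5, 22.1 and 9.17 in the libraries labelled mutant 2, 3 and 4. The log2 difference was 0.73 (-0.51 to 1.98, limma adjusted p = 0.881), with labelled mutant 4 inside the control range.

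The Trk receptors were the best covered members. *Ntrk2* stood at 1710, 1182, 1649 and 1128 normalized counts in *Lhx6* controls 1 to 4 and at 1758, 1321, 2490, 1588 and 1371 in mutants 1, 2, 3, 5 and 6. All mutants but 1 and 3 lay inside the control range. Mutant 3, the highest, also had the highest sum of the 8 interneuron class genes (42330, against 21270 to 29410 in controls and 24660 to 32710 in the other mutants), and the part of this in its *Ntrk2* level was not tested. The means were 1420 ± 305 (SD, n = 4) and 1710 ± 472 (n = 5), a log2 fold change of 0.25 (-0.19 to 0.69, adjusted p = 0.619 by limma), which corresponds to an interval of 0.879 to 1.62 times the control level. Without mutant 3 the log2 fold change was 0.11. *Lhx6* mutant 6, the undated mutant, differed from the 4 undated controls by a log2 value of -0.02.

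*Ntrk2* in the Mtg8 table stood at 3841, 3772 and 3324 normalized counts in controls 1, 2 and 4 and at 2918, 1574 and 3377 in the libraries labelled mutant 2, 3 and 4. Labelled mutant 4 lay inside the control range and the other two below it. The means were 3650 ± 281 and 2620 ± 937 (SD, n = 3 each), a log2 fold change of -0.55 (-1.10 to 0.01). The unadjusted limma p was 0.0542 and the adjusted p 0.859, and the exact permutation test gave p = 0.2 (two-sided), where 3 against 3 libraries allow no less than 0.1. Without labelled mutant 3 the log2 difference was -0.21. Within the dated libraries (2 controls and 1 labelled mutant) it was -0.38 and within the undated ones (1 control and 2 labelled mutants) -0.53. Among the undated, labelled mutant 3 lay below control 4 and labelled mutant 4 above it. With the replicate block the log2 difference was -0.174. The summed level of the 8 interneuron class genes was 35740 to 38290 in controls and 24620, 21100 and 39130 in labelled mutants 2, 3 and 4, so that labelled mutants 2 and 3 were again below the controls. Summed over 11 MGE interneuron genes, the level was 65220 to 66190 in controls and 41270 to 43440 in all 3 labelled mutants. This list includes *Sst* and *Npy*, which the authors reported as lower in *Mtg8* mutants. Gene by gene, limma called 0 of the 11 MGE genes and 0 of the 8 interneuron class genes in this table, where it called no gene at all. The part of the cells that express these genes in the *Ntrk2* values was not tested.

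*Ntrk3* encodes TrkC, the receptor of neurotrophin-3 (chromosome 7). It stood at 436, 394, 539 and 473 normalized counts in *Lhx6* controls 1 to 4 and at 620, 419, 571, 473 and 355 in mutants 1, 2, 3, 5 and 6. With means of 461 ± 61.2 and 488 ± 108 (SD, n = 4 and 5), its log2 fold change of 0.06 had the narrowest interval of the members in this table, -0.35 to 0.48, or 0.783 to 1.39 times the control level (adjusted p = 0.904 by limma). With *Mtg8* it stood at 834, 811 and 390 in controls 1, 2 and 4 and at 917, 303 and 544 in labelled mutants 2, 3 and 4. Here the values fell apart by library name and not by label: the 3 dated libraries (controls 1 and 2 and labelled mutant 2) lay at 811 to 917 and the 3 undated ones at 303 to 544. *Gfra2* split in the same way, and the share of all genes that did so was not computed. The log2 difference between labels was -0.27 over all 6 libraries (-1.10 to 0.57, limma adjusted p = 0.939), 0.16 among the dated and 0.06 among the undated.

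*Ngfr*, the gene of the p75 receptor that binds all neurotrophins, stood at 70.2, 55.0, 104.1 and 82.1 normalized counts in *Lhx6* controls 1 to 4. In mutants 1, 2, 3, 5 and 6 it stood at 63.1, 12.03, 90.3, 45.5 and 90.4. Mutant 2 was far below the rest, and mutants 1, 3 and 6 lay inside the control range. The log2 fold change was -0.61 (-1.73 to 0.51, limma adjusted p = 0.638), or -0.12 without mutant 2. The *Mtg8* controls 1, 2 and 4 were close together at 306, 295 and 301, while the libraries labelled mutant 2, 3 and 4 lay on both sides of them at 378, 137 and 422. The difference was -0.11 (-0.90 to 0.69, limma adjusted p = 0.974), and 0.41 without labelled mutant 3. That library had the lowest *Ngfr*, *Ntrk2* and *Ntrk3* of its table, the lowest sum of interneuron class genes (21100) and the highest sum of radial glia and dividing cell genes (13990, against 7700 to 9066 in controls and 10660 and 9973 in labelled mutants 2 and 4). The part of these in its receptor levels was not tested.

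*Gfra2*, the co-receptor that prefers neurturin (chromosome 14), had the largest fold change among the members in the Lhx6 table but did not pass the test. It stood at 40.4, 20.4, 47.0 and 17.1 normalized counts in controls 1 to 4 and at 7.43, 0, 41.9, 16.5 and 2.48 in mutants 1, 2, 3, 5 and 6. Mutants 1, 2, 5 and 6 lay below the lowest control and mutant 3 inside the control range. The log2 fold change was -2.0 with an interval of -4.04 to 0.04, and it was smaller at -0.99 with a pseudocount of 10 and -1.18 by both edgeR and DESeq2. The limma adjusted p was 0.403, and a single-gene comparison gave p = 0.0536 by limma before adjustment and p = 0.119 by an exact permutation test (two-sided, on the absolute difference), or 0.0952 when the smaller tail was doubled. Before adjustment, p was 0.212 by edgeR and 0.2 by DESeq2. The difference was -1.28 without mutant 2, whose count of 0 allows up to 2.78, and -2.64 without mutant 3. Mutant 6, the one mutant sharing the undated name style, differed from the controls by a log2 value of -3.09, and by -3.10 from the 2 that share its name code. The *Mtg8* controls stood at 99.5, 99.2 and 66.5 and the libraries labelled mutant 2, 3 and 4 at 86.1, 68.9 and 58.1, a log2 difference of -0.31 (-0.996 to 0.38, limma adjusted p = 0.906). As for *Ntrk3*, the dated libraries lay apart, at 86.1 to 99.5, from the undated ones at 58.1 to 68.9. Between labels the log2 difference was -0.204 among the dated and -0.0708 among the undated. Across the 9 Lhx6 libraries the genes whose log2 levels followed *Gfra2* most closely were *Itgb5* (Pearson r = 0.986), *Ap5m1* (0.959) and *Man2c1* (0.956), picked as the highest among all genes tested and given as a description.

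*Gfra1*, the co-receptor for GDNF (chromosome 19), stood at 28.8, 31.0, 9.21 and 11.97 normalized counts in *Lhx6* controls 1 to 4 and at 29.7, 66.6, 1.86, 26.2 and 37.2 in mutants 1, 2, 3, 5 and 6. Mutant 2 was the highest and mutant 3 the lowest of all 9, so that the mutants spread to both sides of the controls, and the log2 fold change was 0.27 (-1.48 to 2.02, limma adjusted p = 0.901). This fold change was -0.119 without mutant 2 and 1.02 without mutant 3. In the Mtg8 table *Gfra1* stood at 45.8, 20.3 and 32.3 in controls and at 29.5, 19.3 and 28.3 in labelled mutants, with a log2 difference of -0.29 (-1.24 to 0.66, limma adjusted p = 0.942), or -0.0188 without control 1.

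*Ret*, the signalling kinase of the GDNF family (chromosome 6), was close to undetected. *Lhx6* controls 1 to 3 held 0 reads and control 4 held 2. Mutants 1, 3, 5 and 6 held 0 reads, and mutant 2 held 21, or 19.4 normalized counts. The *Mtg8* controls held 6, 0 and 1 reads and the libraries labelled mutant 0, 1 and 8. *Lhx6* mutant 2 was also the library with the most *Gfra1*, the least *Ngfr* and no read of *Gfra2* or *Bdnf*. Its summed level of genes of subpallial projection and cholinergic neurons was 2212, against 249.7 to 836.5 in the other 8 Lhx6 libraries, and the part of these cells in its *Ret* and *Gfra1* reads was not tested.

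*Met*, the HGF receptor (chromosome 6), stood at 7.69, 6.20, 23.03 and 12.8 normalized counts in *Lhx6* controls 1 to 4 and at 40.8, 2.78, 24.2, 28.09 and 0 in mutants 1, 2, 3, 5 and 6. Mutants 1, 3 and 5 lay above the highest control and mutants 2 and 6 below the lowest. The log2 fold change of -0.22 (-2.48 to 2.04, limma adjusted p = 0.937) became 0.62 without mutant 6, the library at 0, and 0.61 by edgeR. It was -3.59 with library name style as a covariate (-6.47 to -0.71, limma adjusted p = 0.632), a value that sets mutant 6 alone against the 4 controls. No direction was resolved. In the Mtg8 table *Met* stood at 23.5, 38.4 and 47.9 in controls 1, 2 and 4 and at 30.6, 34.9 and 20.6 in labelled mutants 2, 3 and 4, a log2 difference of -0.31 (-1.23 to 0.61, limma adjusted p = 0.932).

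**Figure D3:**
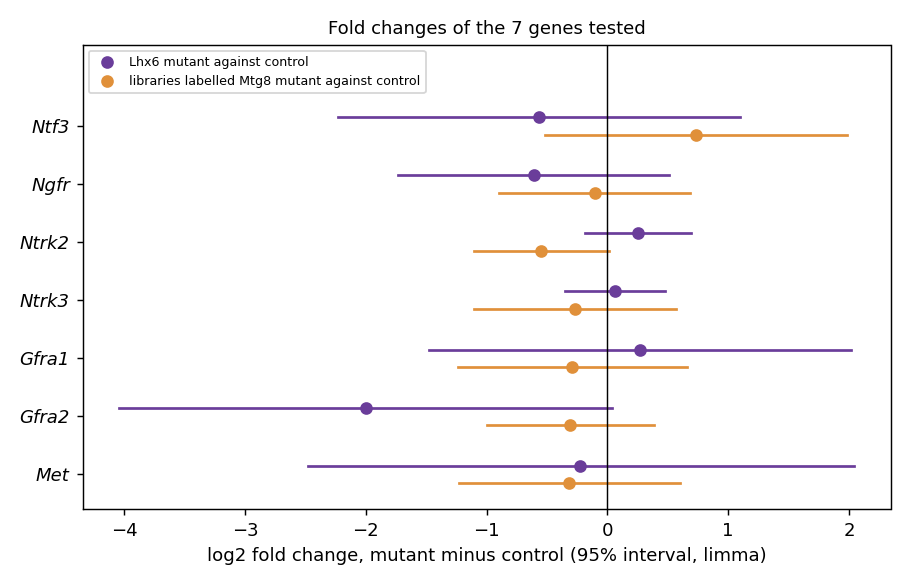
Log2 fold changes, mutant minus control, of the 7 members tested, with 95% intervals from limma, for *Lhx6* mutants (purple) and the libraries labelled *Mtg8* mutant (orange). Every interval includes 0, and those of *Ntrk2* and *Ntrk3* in the Lhx6 table are the narrowest, from -0.19 to 0.69 and from -0.35 to 0.48.

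The intervals set what these libraries could show. For *Ntrk2* and *Ntrk3* in *Lhx6* mutants a doubling or halving lay outside the interval. For *Met* the interval ran from 0.179 to 4.10 times the control level and for *Gfra1* from 0.359 to 4.06. On the log2 scale the interval of *Met* was -1.1 to 2.34 without mutant 6, and that of *Gfra1* was -0.0907 to 2.13 without mutant 3. With a pseudocount of 10 the 2 intervals were -0.874 to 1.22 and -0.692 to 1.36. In the libraries labelled *Mtg8* mutant a fall of *Ntrk2* to 0.466 times the control level was still inside the interval of the main fit. A rise above 1.01 times was not. The upper limit depended on the fit, from a log2 value of -0.2 without labelled mutant 4 to 0.335 with the replicate block. That block rests on the libraries numbered 2 and 4 alone.

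Around the 9 genes, the other genes of these pathways were taken from lists of 88 ligands, processing enzymes, sorting receptors, adaptors, inhibitors and response genes, of which 75 had a row in each table. In *Lhx6* mutants, 3 of the 61 tested were called lower and 2 higher, or 8.2% against 1.71% of all genes. The lists were chosen with earlier results of these data known, so these shares are a description only, and no set test was run. The median log2 fold change of the 61 was 0.06, beside -0.04 for all genes. The calls fell in 3 of the lists. Among 8 tested processing enzymes and their inhibitors, *Serpini1* and *Pcsk2* were lower, among 5 other neurotrophin ligands and receptors *Sorcs1* was higher, and among 6 response genes *Etv5* was lower and *Dusp4* higher. By limma, none of 24 adaptors and kinases (3 at an unadjusted p under 0.05, which 12.7% of all genes reached), 12 inhibitors and co-receptors (4), 5 GDNF family genes (1) or 1 HGF family gene (0) was called. Over all the lists edgeR and DESeq2 also gave 3 lower and 2 higher. Of 16727 genes edgeR called 111 lower and 169 higher, and DESeq2 called 4.53% of all genes it tested.

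*Serpini1* encodes neuroserpin, an inhibitor of tissue plasminogen activator, the protease whose product plasmin can cut pro-neurotrophins. It stood at 5168, 4247, 4340 and 5058 normalized counts in *Lhx6* controls 1 to 4 and at 2007, 1850, 2564, 2363 and 2340 in mutants 1, 2, 3, 5 and 6. All mutants lay below all controls, at 0.472 times their level (log2 -1.08, interval -1.37 to -0.80, adjusted p = 0.000629 by limma). *Pcsk2*, a proprotein convertase of secretory granules known for cutting neuropeptide precursors, stood at 141.3, 143.6, 170.4 and 118.0 in controls and at 45.8, 39.8, 48.4, 60.1 and 45.8 in mutants. These groups were also separate (log2 -1.56, -2.09 to -1.03, limma adjusted p = 0.00462), and 260 of its exonic bases are shared with the antisense gene *Pcsk2os1*.

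*Sorcs1*, a sorting receptor of the sortilin family, showed the largest change of the 5. It stood at 68.3, 47.0, 86.6 and 43.6 normalized counts in controls 1 to 4 and at 315.5, 245.3, 179.8, 219.9 and 282.3 in mutants 1, 2, 3, 5 and 6, or 4.08 times the control level (log2 2.03, 1.45 to 2.61, limma adjusted p = 0.00114). All mutants lay above all controls. *Etv5*, a transcription factor induced by receptor tyrosine kinase signalling, averaged 931 ± 119 in controls and 415 ± 131 in mutants (log2 -1.22, -1.74 to -0.71, limma adjusted p = 0.0192). *Dusp4*, a phosphatase of MAP kinases, averaged 356 ± 72.5 and 1110 ± 650 (SD, n = 4 and 5; log2 1.49, 0.78 to 2.19, limma adjusted p = 0.0370), with mutant 3 at 2220 and the other mutants at 513.5 to 988.1.

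None of these 5 calls held with library name style as a covariate, where limma adjusted p-values were 0.122 for *Serpini1*, 0.238 for *Pcsk2*, 0.0833 for *Sorcs1*, 0.585 for *Etv5* and 0.672 for *Dusp4*. That fit rests on mutant 6, whose log2 differences from the 4 controls of its own style were -1.0, -1.61, 2.24, -1.17 and 1.48 in the same order. Against the 2 controls that share its name code they were -1.0, -1.62, 2.30, -1.10 and 1.29. With a block on replicate number all 5 calls were lost as well, at limma adjusted p-values of 0.105 to 0.375. The log2 fold changes with that block were -1.11, -1.74, 1.87, -1.15 and 1.44 in the same order. The call of *Etv5* was also lost without control 1, 3 or 4 or mutant 5 (adjusted p up to 0.0859), and that of *Dusp4* without any 1 control or mutant 2 or 5 (up to 0.135). Both were also lost by limma without its mean-variance trend (adjusted p = 0.0736 for *Etv5* and 0.127 for *Dusp4*). With 1 library left out, the log2 fold change ran from -1.34 to -1.03 for *Etv5* and from 1.2 to 1.72 for *Dusp4*. In the same mutants the summed level of MGE interneuron genes was lower and that of CGE interneuron genes higher. The latter was 4902 to 7829, against 2938 to 3844 in controls. Gene by gene, 5 of 11 MGE genes were called lower and 0 higher. Of 8 CGE genes, 2 were called lower and 2 higher. The part of these genes in the 5 pathway calls was not tested.

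**Figure D4:**
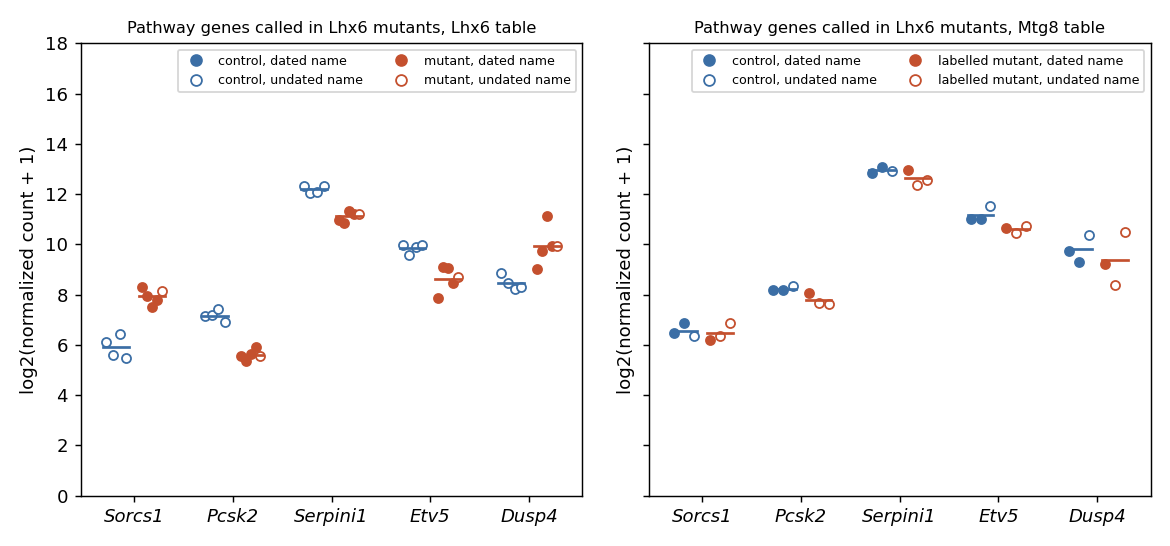
Log2(normalized count + 1) of the 5 other pathway genes called in *Lhx6* mutants, per library, for *Lhx6* (left) and *Mtg8* (right), with colours, symbols and bars for group means as in the plot of the 9 genes by library. In the Lhx6 table all mutants lie on one side of all controls for each gene, while in the Mtg8 table *Sorcs1*, *Serpini1* and *Dusp4* overlap between the groups.

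In the libraries labelled *Mtg8* mutant, 0 of 64 other pathway genes tested were called by limma, and 0 by edgeR or DESeq2. The unadjusted limma p was under 0.05 for 4 of the 64, beside 5.49% of all genes. *Etv5* stood at 2049, 2089 and 2926 in controls 1, 2 and 4 and at 1597, 1391 and 1689 in labelled mutants 2, 3 and 4 (log2 -0.58, -1.02 to -0.14, limma adjusted p = 0.859). *Pcsk2* stood at 288.4, 292.2 and 326.7 and at 266.2, 204.9 and 195.7 (log2 -0.45, -0.97 to 0.06, limma adjusted p = 0.859). Both had groups that did not overlap, as did 10 of the 64 in all, 7 lower and 3 higher, beside 10.2% of all genes. The largest differences among these 10 were in *Pcsk5*, another convertase (log2 1.17), *Lrig3* (-0.92) and *Lrig1* (-0.87), transmembrane proteins related to a family of receptor inhibitors, the adaptor *Shc3* (-0.78) and the p75-related *Nradd* (0.59), with limma adjusted p-values of 0.859 to 0.863. Without labelled mutant 2, the lowest library, the difference in *Lrig3* was -0.33.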

How the data were processed

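YFP-positive cells were sorted and libraries made with a low input kit and read as single 75 base reads. The authors trimmed reads with fastp (0.20.1), aligned them to GRCm38.p6 with STAR (2.7b), counted them per gene with featureCounts (1.6.4) and deposited counts divided by DESeq2 size factors, a signal from which whole reads were recovered (100% of values within 0.01 of a whole read), without sex-linked genes. The authors left sex-linked genes out because the sexes were unevenly spread over their control and mutant samples. The labels do not give the sex of each embryo, and its part in the values was not tested. Columns of the authors' own comparisons (fold changes and p-values) were not used. Each table was fitted alone with limma (3.58.1, mean-variance trend) on log2(value + 1) after leaving out genes whose mean was under 10, two-sided, with Benjamini-Hochberg adjustment over all genes tested and calls under 0.05. Folds are on this scale, and those of low genes depend on the pseudocount and on single libraries near 0. Exact permutation tests took the absolute difference of mean log2 values between the same groups. edgeR (4.0.16) and DESeq2 (1.42.0) on recovered reads, other pseudocounts (0.5, 10), filters (none, 50), TMM, no trend, a replicate block, name style and leaving out each library were alternatives. RPKM used exon lengths from the tables, which also gave the gene coordinates, and lengths of coding transcripts came from GENCODE M21. The fits were tested on simulated data. Limits for a count of 0 are 3 reads, and cover counting error only. Named genes were the 9 members, *Lhx6* and *Runx1t1*, listed pathway genes that were called, and in each table up to 5 further listed genes with separate groups and the largest change, and the 3 genes most like the member with the largest change. The members and lists were chosen with earlier results of these data known. Other listed genes, such as *Gdnf* and *Ntf5*, were not analysed here. One listed gene is not reported here.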

Additional observations from a re-analysis of the deposited data

Results flagged for a closer look

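In 28 pairs of a gene and a group of 4 or 5 libraries, 3 had a library far from the others by Dixon's criterion, which chance meets in about 1 of 20 groups. *Ret* stood at 1.71 normalized counts (2 reads) in *Lhx6* control 4 and at 0 in the other 3 controls, and at 19.4 (21 reads) in *Lhx6* mutant 2 and at 0 in the other 4 mutants. With all other libraries at 0 any read meets the criterion, so that it says nothing for *Ret*, and the 2 reads of control 4 lie within the 3 reads that a count of 0 allows. *Dusp4* stood at 2220 in *Lhx6* mutant 3, against 513.5 to 988.1 in the other mutants. The cause was not tested.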

How the results depend on the processing

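No member was called under any of the 19 alternatives for *Lhx6* or the 16 for *Mtg8*, where the smallest adjusted p of a member was 0.146 (*Gfra2*, without *Lhx6* mutant 3) and 0.340 (*Ntrk2*, without labelled mutant 2). *Bdnf* and *Ret* were fitted under some of these alternatives only. At a minimum mean of 50, *Ntf3*, *Gfra1* and *Met* were not fitted in either table, and *Gfra2* was not fitted in the Lhx6 table. The part of depth in the members' intervals was not tested.

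In the Lhx6 table, 114 genes were called lower and 172 higher. These counts were 271 and 540 by DESeq2, 42 and 15 with name style as a covariate, and 55 to 148 and 104 to 344 when 1 library was left out (55 lower and 104 higher without control 1, 344 higher without mutant 6). Pathway genes called lower and higher went from 3 and 2 to 0 and 0 with name style, 2 were lower and 1 higher without the trend (*Etv5* and *Dusp4* lost), and 2 to 4 and 1 to 2 were called with 1 library left out. With *Mtg8*, no gene (0) was called in either direction, against 1 lower and 1 higher at a minimum mean of 50, 1 higher with no filter and by edgeR, 10 lower and 21 higher by DESeq2, and 0 to 4 lower and 0 to 83 higher with 1 library left out (4 and 83 without labelled mutant 2). The cause was not tested.

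Same-numbered libraries did not deviate together in the Lhx6 table (correlations of -0.154, 0.00175 and 0.0717 for numbers 1, 2 and 3), and no label says that a number marks a litter or day. The Mtg8 table shares the numbers 2 and 4 (0.138 and 0.159), too few pairs to show pairing from the data, and the libraries numbered 2 also share a date and code in their names, as does control 1. The numbers were therefore not used to pair samples. With the replicate block, to which libraries without a partner add nothing, 37 genes were lower and 49 higher in the Lhx6 table with 0 and 0 pathway genes, and 12 and 88 in the Mtg8 table with 2 pathway genes higher (*Islr2* and *Fos*). In the Mtg8 table that fit rests on the libraries numbered 2 and 4 alone, too few to settle these calls. The block gave log2 differences of the opposite sign for *Gfra1* (-0.24) and *Met* (0.47) in the Lhx6 table and for *Ngfr* (0.42), *Ntrk3* (0.33) and *Gfra1* (0.17) in the Mtg8 table.

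The log2 fold change of *Gfra2* in the Lhx6 table ran from -3.09 with name style to -0.99 with a pseudocount of 10, and *Met* was -3.59 with name style. With name style, *Ngfr* was 0.25, *Ntrk2* -0.0229 and *Ntrk3* -0.36 in the Lhx6 table and *Ngfr* 0.0032 and *Ntrk3* 0.11 in the Mtg8 table. *Met* in the Lhx6 table was 0.17 with a pseudocount of 10, 0.61 by edgeR and 0.62 by DESeq2, and *Ngfr* with *Mtg8* was 0.0672 by edgeR and 0.0523 by DESeq2. With 1 library left out, the ranges were -0.0313 to 0.17 for *Ntrk3*, -0.12 to 1.02 for *Gfra1* and -0.73 to 0.62 for *Met* in the Lhx6 table, and -0.40 to 0.41 for *Ngfr* and -0.66 to 0.14 for *Ntrk3* in the Mtg8 table. The others kept their sign, over -1.01 to -0.0293 for *Ntf3*, -0.82 to -0.12 for *Ngfr*, 0.11 to 0.35 for *Ntrk2* and -2.64 to -1.28 for *Gfra2* with *Lhx6*, and 0.40 to 1.12 for *Ntf3*, -0.76 to -0.21 for *Ntrk2*, -0.59 to -0.0188 for *Gfra1*, -0.50 to -0.17 for *Gfra2* and -0.60 to -0.0952 for *Met* with *Mtg8*. Comparisons within a shared name code and the doubled tail of the permutation test were chosen after seeing the data. By the longest coding transcript, also chosen after seeing the data, *Ntrk3* ranked 2 and *Ngfr* 3 in *Lhx6* controls, and *Ntrk3* 3 and *Gfra2* 4 in *Mtg8* controls.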
